A study of Mus musculus with 58 samples.

Results

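The genes described here are skeletal muscle genes that appear in ribosome-bound mRNA of mouse fat, together with the myoglobin gene Mb. They are Acta1, Tnni2, Myh4, Tcap, Pvalb, Mb and Myl1, 7 of 11603 rows of the deposited mRNA table, found by symbol. Of 9 symbols looked for, Ckm (muscle creatine kinase) and Mylpf (the fast regulatory myosin light chain) had no row and were not analysed here. The genes were chosen by their measured change in beige fat after warming, or by the difference between their changes in beige and brown fat. Their beige values are therefore given as a description, without a test.

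Of the 58 samples in the series, 22 mRNA libraries enter here; the 36 chromatin samples were not analysed here. All libraries come from C57BL/6J NuTRAP mice, in which cells expressing a chosen Cre carry GFP-tagged ribosomes that can be precipitated (TRAP) along with the mRNA bound to them. Both Ucp1-NuTRAP and Adipoq-NuTRAP mice were used, so the Ucp1 or the Adipoq promoter marks the cells, but the line behind a given library is not labelled. Warm beige libraries (n = 3) came from inguinal white fat of mice raised at 23 °C, held at 4 °C for 1 week and then at 30 °C for 4 weeks, and cold beige libraries (n = 4) from the same depot at the end of the cold week. Warm brown (n = 5) and cold brown libraries (n = 5) came from interscapular brown fat after the same treatments. Warm white libraries (n = 5) came from inguinal fat of mice that had lived at 30 °C from birth. Libraries are labelled as biological replicates, with no word on whether 2 depots of 1 animal were used.

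Skeletal muscle contracts when myosin thick filaments pull on actin thin filaments within the sarcomere. The troponin complex lets this happen when calcium is released, and the cell then buffers the calcium or pumps it away. Myoglobin is a haem protein that stores oxygen and carries it towards mitochondria in oxidative muscle and heart, and brown adipocytes are known to make it too. Fast-twitch fibres, by contrast, are rich in fast myosin, fast troponin and parvalbumin and hold little myoglobin.

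Expression is given as CPM, read counts scaled to a common library size. The deposited values are log2 CPM after a batch adjustment, and for 6 of the 7 genes the number of reads behind each value could be worked back from the steps between low values. Those reads gave an effective depth of 3940000 to 7210000 reads in warm beige, 13070000 to 19680000 reads in cold beige, 11340000 to 24140000 reads in warm brown, 15520000 to 22290000 reads in cold brown and 3700000 to 9740000 reads in warm white libraries. Of 805 low values checked, 803 came out whole within 0.1 reads. Sums of marker genes are of deposited values. Defining adipocyte markers summed to 12300 to 14400 CPM in warm beige, 13400 to 14500 CPM in cold beige, 9520 to 10600 CPM in warm brown, 13100 to 13500 CPM in cold brown and 15200 to 17200 CPM in warm white libraries. Library 4 of cold beige and library 2 of warm white stood apart from their groups in the sarcomere genes, and several results that rest on them are given without them as well.

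Mb and Myl1 were lower in warm than in cold libraries of both depots, unlike the 5 other genes, which were higher in warm beige fat on average. Mb had 1.27, 1.23 and 0.694 CPM in the 3 warm beige libraries, against 8.34, 28.7, 36.4 and 18.2 CPM in the 4 cold beige libraries. It had 27.5, 38.4, 18.9, 31.3 and 28.4 CPM in warm brown libraries, against 208, 260, 186, 212 and 151 CPM in cold brown libraries. Every warm library lay below every cold library of its depot, and each warm beige value rests on 5 reads. In warm white libraries Mb had 0.34, 0.541, 0.215, 0.103 and 0.402 CPM, from 1 or 2 reads each. In descending order, Mb averaged 203 ± 39.9 CPM in cold brown (SD, n = 5), 28.9 ± 7.04 CPM in warm brown (n = 5), 22.9 ± 12.3 CPM in cold beige (n = 4), 1.06 ± 0.321 CPM in warm beige (n = 3) and 0.32 ± 0.169 CPM in warm white (n = 5). Neighbours in this order did not overlap, except warm brown and cold beige, which did. In bulk libraries of this kind, fewer cells of a type and less RNA per cell cannot be told apart.

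The change of Mb on warming brown fat was tested in a fit of all 22 libraries and 11603 rows. Mb fell by 2.83 ± 0.36 on the log2 scale in warm brown against cold brown libraries (SE; limma-trend, adjusted p = 3.28e-07). Within the batches the change was -2.84 in batch 1 and -2.82 in batch 2. In beige libraries the deposited values differed by -4.24 ± 0.43 (warm minus cold, log2, SE), and this contrast belongs to the choice of the genes. Against warm white, Mb was higher by 6.58 ± 0.36 in warm brown libraries (adjusted p = 1.13e-13) and by 9.41 ± 0.36 in cold brown libraries (adjusted p = 7.67e-17), both on the log2 scale by limma-trend. In warm beige against warm white libraries Mb was higher by 1.84 ± 0.42 on the log2 scale without overlap, and it was the 1 gene of the 7 whose libraries did not overlap there, where 29% of all rows did not overlap.

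Myl1 encodes the essential light chains of fast skeletal myosin, yet on warming it ran with Mb and not with the other sarcomere genes of beige fat. Its batch adjustment could not be worked back, so its values are the deposited log2 CPM. Myl1 had 2.94, 3.07 and 2.92 log2 CPM in warm beige libraries, against 4.00, 4.62, 4.82 and 5.01 in cold beige libraries. It had 3.90, 4.15, 3.62, 4.04 and 3.87 log2 CPM in warm brown libraries, against 4.90, 4.98, 5.00, 4.98 and 5.06 in cold brown libraries. All warm values were below all cold values in both depots, and the cold brown libraries lay close together. Warm white libraries had 3.04, 4.42, 3.09, 3.34 and 2.54 log2 CPM, with library 2 above the others. That library and cold beige library 4, also the highest of its group in Myl1, were the 2 that stood apart in the sarcomere genes. Within these groups Myl1 was thus highest where the sarcomere genes were.

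Myl1 fell by 1.07 ± 0.23 on the log2 scale on warming brown fat (SE; limma-trend, adjusted p = 0.000263). In batch 1 alone the change was -0.91 with an adjusted p of 0.188 by limma-trend, and in batch 2 alone it was -1.17. The deposited beige values differed by -1.64 ± 0.28 (warm minus cold, log2, SE). Myl1 was higher in cold brown than in warm white libraries by 1.70 ± 0.23 (limma-trend, adjusted p = 3.73e-07) and in warm brown than in warm white libraries by 0.63 ± 0.23 (adjusted p = 0.0158), both on the log2 scale. The smaller of these calls was lost without warm white library 5, at 0.44 and an adjusted p of 0.0668 by limma-trend. In batch 1 alone it was lost too, at 0.69 (limma-trend, adjusted p = 0.236). Without warm white library 2 the difference was 0.91 (limma-trend, adjusted p = 3.73e-05).

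Across the 22 libraries Mb and Myl1 had a Pearson correlation of 0.83, while Mb and Myh4 had one of -0.696. These are descriptions over 22 libraries that share groups, depots and the batch adjustment. The 5 rows most like Mb across the libraries, out of all rows, were Sdr39u1 (Pearson r = 0.989), Gpi1 (0.988), Ech1 (0.985), Ndufv3 (0.985) and Dlg1 (0.983). The rows most like Myl1 were Trpc4ap (0.955), G6pd2 (0.947), Zswim3 (0.942), Ppdpf (0.94) and Lclat1 (0.938). None of these 10 rows is on the lists of muscle genes used here.

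**Figure D1:**
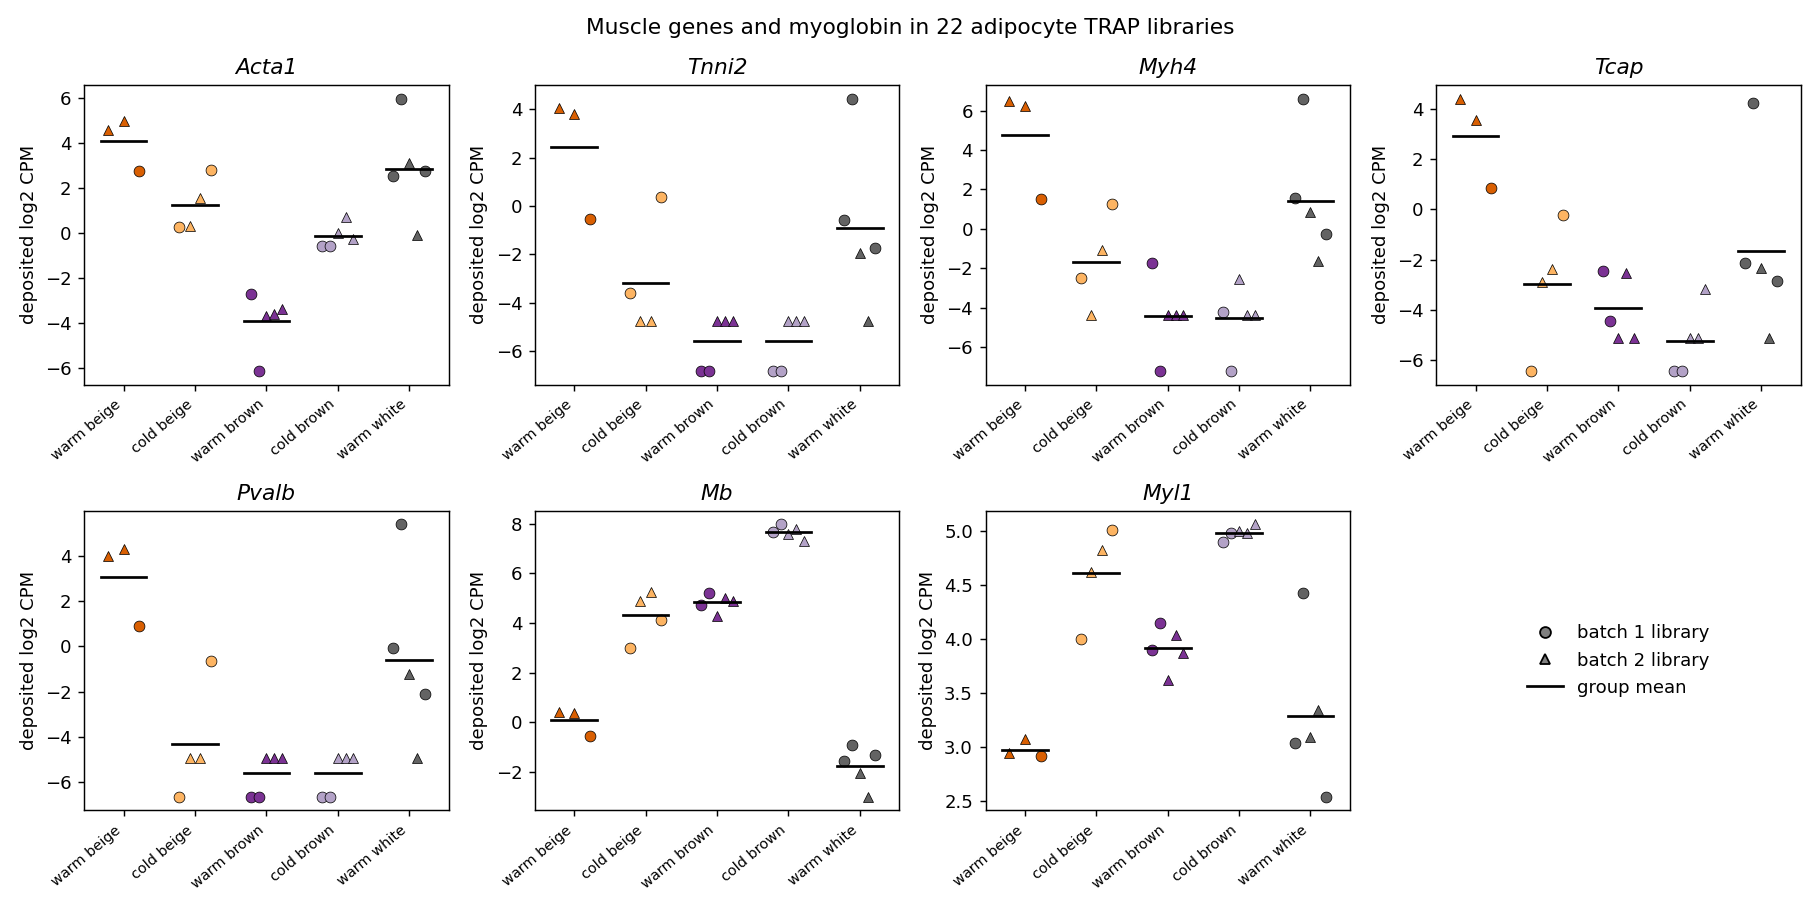
Deposited log2 CPM (vertical axis) of 7 genes in 22 libraries by group, with 1 point per library, circles for batch 1, triangles for batch 2 and a line at each group's mean. Mb and Myl1 are lower in every warm library than in every cold library of the same depot, while Myh4, Tcap and Pvalb are higher in every warm beige than in every cold beige library.

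The 5 other genes are the sarcomere genes proper and parvalbumin. In beige fat they averaged higher in warm libraries, and in brown fat they were barely read, apart from Acta1 in cold brown libraries. Myh4 encodes the myosin heavy chain of the fastest mouse fibres (type IIb), the motor of the thick filament. It had 132, 113 and 56 reads in warm beige libraries, against 6, 0, 3 and 125 reads in cold beige libraries. Scaled by depth, that was 33.5, 27.8 and 7.77 CPM in warm beige libraries, against 0.459, 0, 0.157 and 6.35 CPM in cold beige libraries. The warm libraries lay above the cold ones, but cold beige library 4 came close to warm beige library 3, and both are of batch 1. In brown fat Myh4 had 9, 0, 0, 0 and 0 reads in warm libraries, against 2, 0, 1, 0 and 0 reads in cold libraries, so the 2 groups overlap. Warm white libraries had 47, 973, 6, 1 and 11 reads of Myh4, and library 2 alone reached 263 CPM.

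Acta1 encodes skeletal alpha-actin, the body of the thin filament. It had 18.8, 25.1 and 8.60 CPM in warm beige libraries, against 1.53, 0.958, 2.31 and 9.15 CPM in cold beige libraries. Cold beige library 4 reached the range of the warm libraries, so the groups overlap. In brown fat Acta1 had 2, 0, 1, 1 and 1 reads in warm libraries, against 13, 14, 17, 26 and 12 reads in cold libraries. Every cold brown library had more Acta1 reads than every warm brown library, the opposite of the order in beige fat. The level averaged 0.064 ± 0.066 CPM in warm brown and 0.868 ± 0.233 CPM in cold brown libraries (SD, n = 5 each). Warm white libraries had 7.47, 81.7, 6.68, 0.719 and 8.65 CPM.

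Tnni2 encodes the inhibitory subunit of fast troponin, which holds the thin filament off until calcium arrives. It had 32, 28 and 10 reads in warm beige libraries, against 2, 0, 0 and 52 reads in cold beige libraries. Warm beige library 3, at 1.39 CPM, was below cold beige library 4, at 2.64 CPM. Tnni2 had 0 reads in each of the 10 brown libraries, which over the pooled depth allows up to 0.0321 CPM in warm brown and 0.0319 CPM in cold brown libraries. Warm white libraries had 8, 166, 1, 0 and 3 reads. Such limits and intervals cover counting error only.

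Tcap encodes the titin cap protein (telethonin), which joins the ends of titin at the Z-disc. It had 53, 30 and 20 reads in warm beige libraries, against 0, 1, 2 and 26 reads in cold beige libraries. In brown fat it had 3, 1, 0, 2 and 0 reads in warm libraries, against 0, 0, 0, 0 and 1 reads in cold libraries. Pvalb encodes parvalbumin, the calcium buffer of fast fibres, and had 34, 44 and 24 reads in warm beige libraries, against 0, 0, 0 and 22 reads in cold beige libraries. In CPM every warm beige library was above every cold beige library for both genes, and the cold reads lay almost wholly in library 4. Pvalb, like Tnni2, had 0 reads in all 10 brown libraries. In warm white fat Tcap had 2, 109, 1, 0 and 1 reads and Pvalb had 10, 278, 2, 0 and 2 reads, again mostly in library 2.

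In the deposited values the difference between warm and cold beige libraries was 6.43 ± 1.66 for Myh4, 7.34 ± 1.74 for Pvalb, 5.90 ± 1.68 for Tcap, 5.62 ± 1.70 for Tnni2 and 2.87 ± 0.97 for Acta1 (warm minus cold, log2, SE). The warm and cold beige libraries did not overlap for 5 of the 7 genes, 3 of them higher in warm and 2 of them lower, where 66.4% of all rows did not overlap, 32.9% higher and 33.5% lower. Because this contrast chose the genes, nothing is read from that count. Without cold beige library 4 the differences were 7.40 for Myh4, 8.55 for Pvalb, 6.82 for Tcap, 6.81 for Tnni2 and 3.39 for Acta1, and all 7 genes were without overlap. Without warm beige library 3 all 7 were without overlap too. Within batch 1, which holds 1 warm beige library, the difference was 2.16 for Myh4, 1.06 for Tnni2, 1.20 for Acta1 and 4.54 for Pvalb, and within batch 2 it was 9.08 for Myh4 and 8.69 for Tnni2.

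The batch adjustment carries part of the size of these values. Undoing it raised every batch 1 value and lowered every batch 2 value, and the distance it had put between the batches was 2.86 for Myh4, 2.08 for Tnni2, 1.71 for Pvalb, 1.30 for Tcap, 0.72 for Acta1 and 0.10 for Mb on the log2 scale. Libraries without a single read thus appear in the deposited table at 2 different values. Undone, the beige difference was 5.95 for Myh4, 7.06 for Pvalb, 5.69 for Tcap, 5.28 for Tnni2, 2.75 for Acta1 and -4.26 for Mb (warm minus cold, log2). The brown differences cannot change in this way, since both brown groups hold 2 libraries of batch 1 and 3 of batch 2, and the shift cancels.

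**Figure D2:**
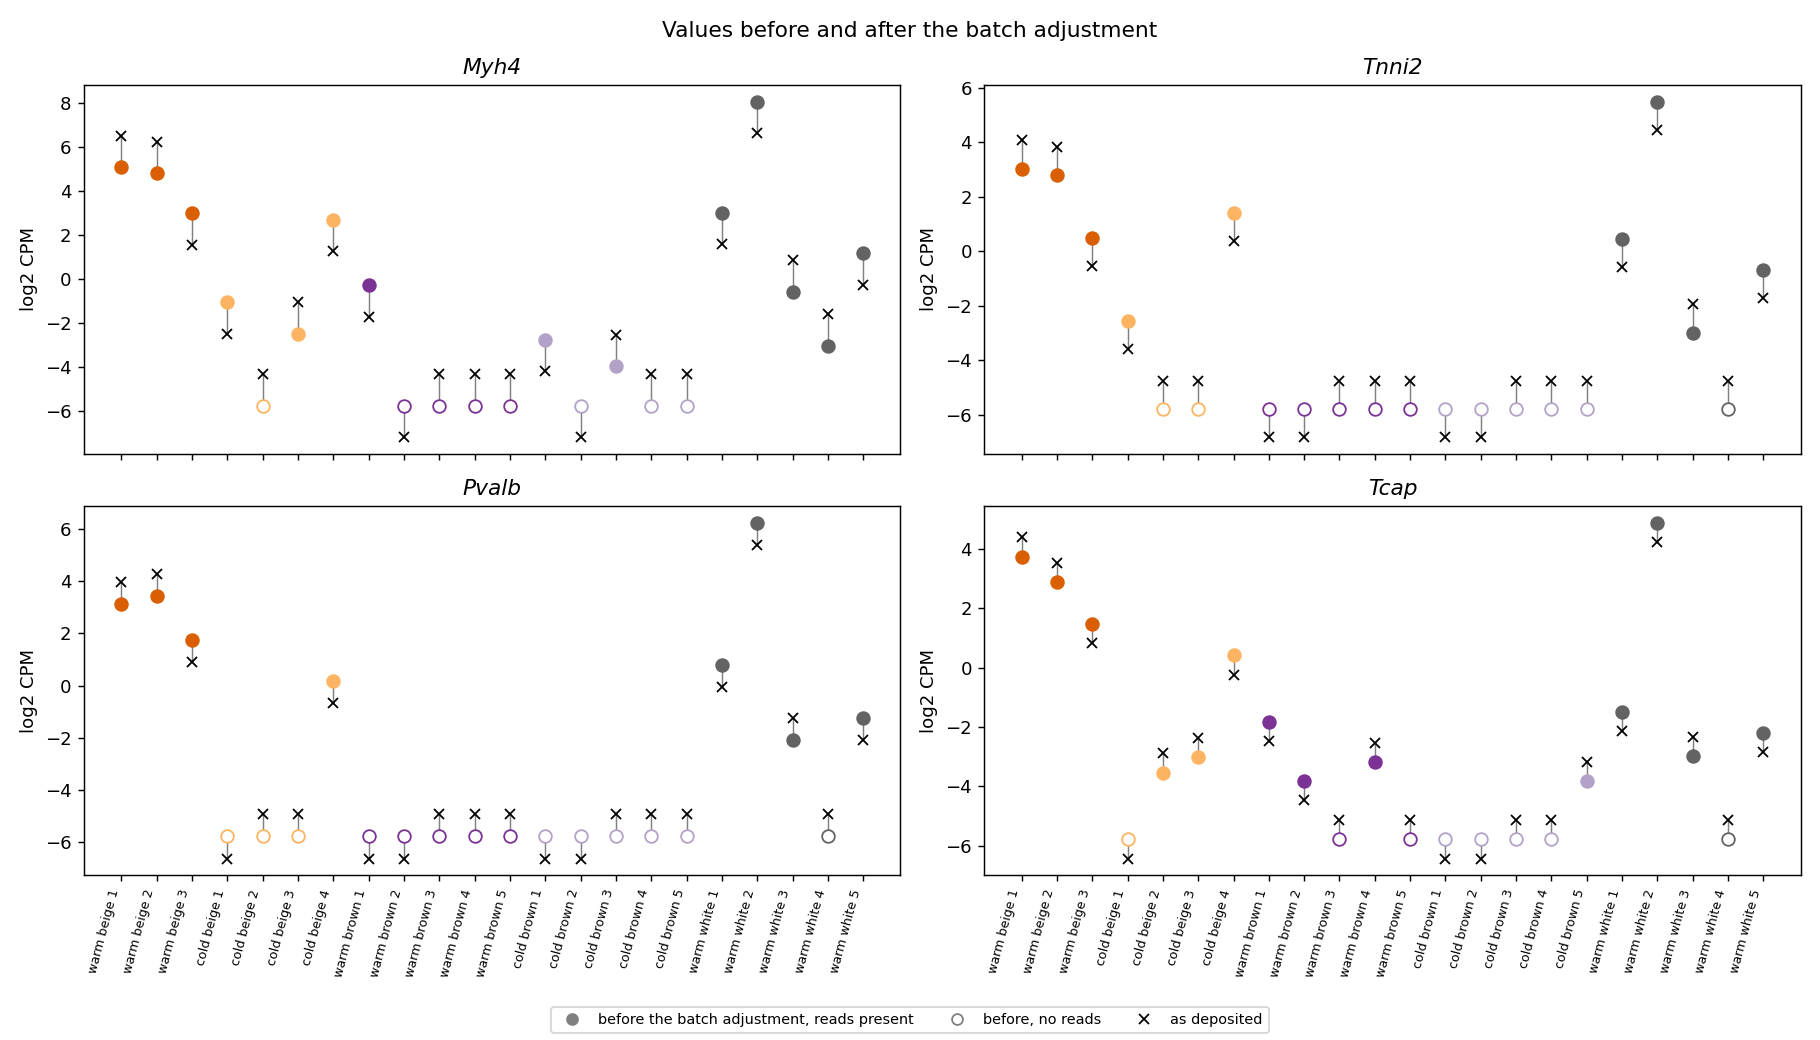
Myh4, Tnni2, Pvalb and Tcap in each of 22 libraries in log2 CPM (vertical axis), as deposited (crosses) and before the batch adjustment (circles, open where the library had no reads). All libraries without reads share 1 floor of -5.78 log2 CPM before the adjustment and lie at 2 levels after it, and Tnni2 and Pvalb have open circles in all 10 brown libraries.

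In warming of brown fat, 3 of the 7 genes passed the test and all 3 fell: Mb, Acta1 and Myl1. Of all rows 71.3% passed, 30.1% lower and 41.2% higher in warm brown, so this share is below the background. Brown warming is also 1 of the 2 changes compared when some of these genes were chosen, so it is not fully independent of the choice. Acta1 fell by 3.77 ± 0.80 on the log2 scale (SE; limma-trend, adjusted p = 0.00024), and the change was -3.85 in batch 1 and -3.71 in batch 2. With 1 CPM added before the logarithm it was -0.84 with an adjusted p of 0.197 by limma-trend, since both levels are near or below 1 CPM. The summed level of 8 smooth muscle markers was 38.7 to 55.4 CPM in warm brown and 55.8 to 88.3 CPM in cold brown libraries. Gene by gene, 2 of these 8 were higher, 2 were lower and 4 did not pass. Their median difference was 0.19, against 0.13 over all rows (log2). The part of smooth muscle in the Acta1 reads was not tested. Whether reads of other actin genes were counted for Acta1 was not tested either. Myh4 differed by 0.14 ± 1.38 (adjusted p = 0.935) and Tcap by 1.32 ± 1.39 (adjusted p = 0.406), warm minus cold on the log2 scale by limma-trend, and neither passed. For Tnni2 and Pvalb both brown groups had no reads, so no fold is given.

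Brown and white fat differed in these genes in both directions. In warm brown against warm white libraries 6 of the 7 genes passed, 2 higher and 4 lower, where 79% of all rows passed, 40.9% higher and 38.1% lower. In cold brown against warm white libraries 7 of 7 passed, 2 higher and 5 lower, where 85.6% of all rows passed, 40.4% higher and 45.2% lower. Both shares are near the background, and the comparisons share their white libraries. The 2 higher genes were Mb and Myl1 in each case. Acta1 had a log2 difference from warm white of -6.77 ± 0.80 in warm brown (SE; limma-trend, adjusted p = 7.32e-08) and -3.0 ± 0.80 in cold brown libraries (adjusted p = 0.0015), lower than in warm white libraries both times. Within batch 2 the Acta1 difference of cold brown was -1.36 with an adjusted p of 0.107 by limma-trend. Without warm white library 2 the Acta1 difference was -5.99 in warm brown and -2.22 in cold brown libraries (limma-trend, adjusted p = 1.07e-07 and 0.00641). Myh4 had a log2 difference from warm white of -5.82 ± 1.38 in warm brown (SE, limma-trend, adjusted p = 0.000553) and of -5.96 ± 1.38 in cold brown libraries (adjusted p = 0.000371). With that white library left out, the Myh4 difference was -4.53 in warm brown and -4.66 in cold brown libraries (limma-trend, adjusted p = 0.00229 and 0.00154).

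Tnni2 and Pvalb were at 0 reads in brown fat, so their distance from white fat is a lower limit. Taken against 3 reads over the whole group, Tnni2 was at least 165-fold lower in warm brown and at least 166-fold lower in cold brown libraries than in the pooled warm white libraries. Pvalb was at least 271-fold lower in warm brown and at least 272-fold lower in cold brown libraries. Without warm white library 2 these limits became at least 12.5-fold and 12.6-fold for Tnni2 and at least 14.6-fold and 14.7-fold for Pvalb. The limma-trend adjusted p for Tnni2 was 0.00466 in warm brown and 0.00411 in cold brown, and for Pvalb it was 0.00316 in warm brown and 0.00278 in cold brown, each against warm white. Leaving out warm white library 2, it was 0.0227 in warm brown and 0.0206 in cold brown for Tnni2. For Pvalb it was then 0.0149 in warm brown and 0.0134 in cold brown. Tcap passed in cold brown (-3.62 ± 1.39, log2; limma-trend, adjusted p = 0.0199) and not in warm brown (-2.30 ± 1.39, adjusted p = 0.134) against warm white. Without warm white library 2 the cold brown call was lost, at -2.15 and an adjusted p of 0.0967 by limma-trend, and without warm white library 4 the warm brown difference passed, at -3.17 and 0.0416. Whether the 2 differences of Tcap differ from each other is the brown warming test above.

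The 4 genes with the fewest brown reads were read together in a few libraries. Myh4, Pvalb, Tnni2 and Tcap summed to 251, 215 and 110 reads in warm beige libraries, against 8, 1, 5 and 225 reads in cold beige libraries. In warm white libraries the sum was 67, 1526, 10, 1 and 17 reads, and brown libraries had at most 12. In cold beige and in warm white fat, 1 library thus held most of the group's reads. In CPM the sum was 63.7, 52.8 and 15.3 CPM in warm beige libraries, 11.4 CPM in cold beige library 4, 11.4 CPM in warm white library 1 and 413 CPM in warm white library 2.

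Within these libraries Myh4 held the largest share of the 4 genes, and the shares of all 4 varied. Myh4 made up 52.6%, 52.6% and 50.9% of the reads of the 4 genes in the 3 warm beige libraries, 55.6% in cold beige library 4, and 70.1% and 63.8% in warm white libraries 1 and 2. Tcap made up 21.1%, 14.0% and 18.2% in warm beige libraries, 11.6% in cold beige library 4, and 3.0% and 7.1% in warm white libraries 1 and 2. Tcap thus took a larger share in each warm beige library than in either of these white libraries, and Myh4 a smaller one. Tnni2 made up 23.1% in cold beige library 4, against 9.1% to 13.0% in the 3 warm beige libraries and 11.9% and 10.9% in warm white libraries 1 and 2. Pvalb made up 13.5%, 20.5% and 21.8% in warm beige libraries, 9.8% in cold beige library 4, and 14.9% and 18.2% in warm white libraries 1 and 2. No test was made of these shares.

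Myoglobin did not come with them. For each read of the 4 genes there were 0.02, 0.023 and 0.045 reads of Mb in warm beige libraries, and 0.03 and 0.001 in warm white libraries 1 and 2, against 1.596 in cold beige library 4. Warm white library 2, with 1526 reads of the 4 genes, had 2 reads of Mb. Cold beige library 4 had 359 reads of Mb, at 18.2 CPM within the range of the other cold beige libraries, which had 1 to 8 reads of the 4 genes.

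**Figure D3:**
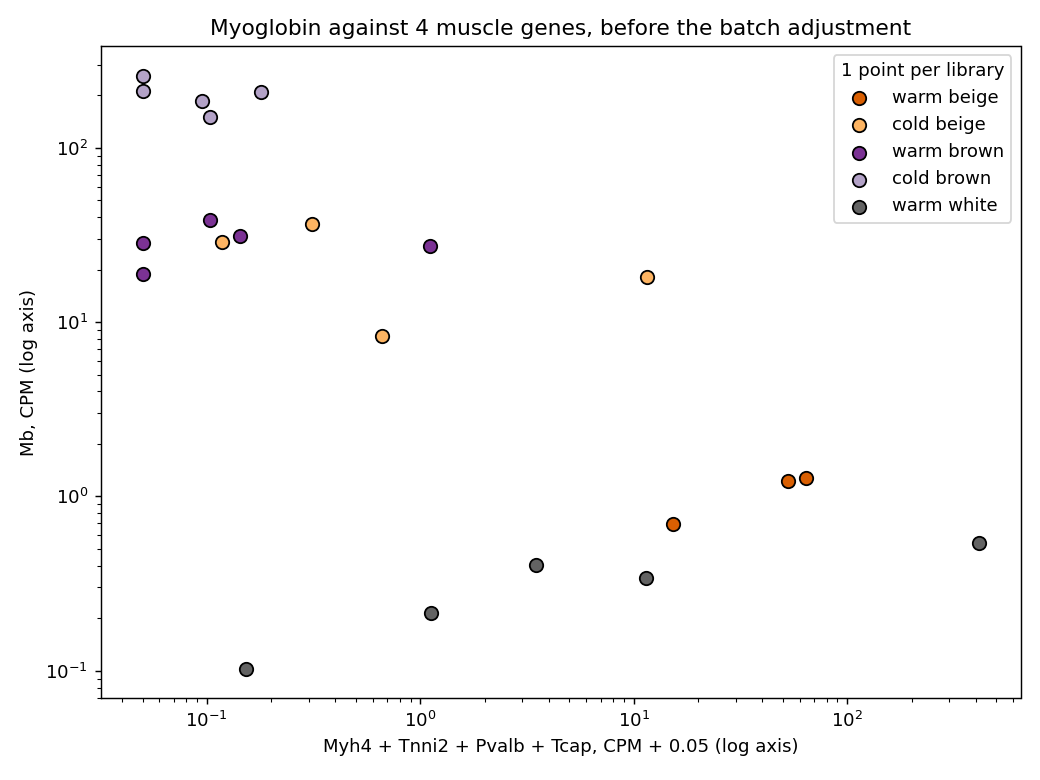
Mb in CPM (vertical log axis) against the sum of Myh4, Tnni2, Pvalb and Tcap in CPM with 0.05 added (horizontal log axis), before the batch adjustment, with 1 point per library. Cold brown libraries lie at the top left with 151 to 260 CPM of Mb, and warm white library 2 lies at the bottom right with 413 CPM of the 4 genes.

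The positions of the genes come from RefSeq on GRCm38.p6. Myl1 lies at chr1:66924295-66947932, Tnni2 at chr7:142441816-142444410, Acta1 at chr8:123891758-123894775, Myh4 at chr11:67237812-67260447, Tcap at chr11:98383811-98384953, Mb at chr15:77015487-77050668 and Pvalb at chr15:78191112-78206400. The annotated span of Mb overlaps Apol6, and Myh4 stands in a cluster of closely related myosin heavy chain genes, so reads of near-identical stretches could have been counted for a neighbour. The 250 bases before a start site are shown for Myh4 and Acta1, 2 of the 5 genes higher on average in warm beige. They are also shown for Mb and Myl1, which were lower there. All are on the strand of the gene and run up to the base before the start. Capitals mark the E-box CANNTG (6 letters, read on both strands), which muscle regulatory factors of the MyoD family bind, and the CArG box (10 letters), which serum response factor binds.
Myh4, chr11:67237562-67237811, plus strand: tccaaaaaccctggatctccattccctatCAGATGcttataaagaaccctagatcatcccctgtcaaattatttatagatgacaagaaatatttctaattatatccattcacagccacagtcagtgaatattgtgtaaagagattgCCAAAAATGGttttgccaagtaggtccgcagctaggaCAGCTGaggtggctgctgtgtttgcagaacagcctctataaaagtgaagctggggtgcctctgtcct
Acta1, chr8:123894776-123895025, minus strand: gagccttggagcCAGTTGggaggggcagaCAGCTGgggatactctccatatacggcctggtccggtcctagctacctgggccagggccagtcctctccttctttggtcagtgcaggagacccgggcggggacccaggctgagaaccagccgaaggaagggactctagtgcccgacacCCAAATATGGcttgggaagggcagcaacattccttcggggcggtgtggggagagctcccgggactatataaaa
Mb, chr15:77022728-77022977, minus strand: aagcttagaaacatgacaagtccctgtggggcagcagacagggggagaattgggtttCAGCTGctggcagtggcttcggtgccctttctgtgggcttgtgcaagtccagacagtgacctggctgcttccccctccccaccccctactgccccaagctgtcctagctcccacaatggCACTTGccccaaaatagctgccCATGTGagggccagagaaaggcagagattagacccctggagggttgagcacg
Myl1, chr1:66945057-66945306, minus strand: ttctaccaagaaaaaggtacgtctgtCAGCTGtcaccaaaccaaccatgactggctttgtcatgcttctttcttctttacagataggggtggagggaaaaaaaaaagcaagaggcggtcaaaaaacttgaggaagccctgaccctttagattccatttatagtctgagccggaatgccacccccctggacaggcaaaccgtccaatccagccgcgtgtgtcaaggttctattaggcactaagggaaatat
Of 32536 such windows over all genes, 66.2% hold an E-box and 1.5% hold a CArG box. Myh4 and Acta1 each hold 2 E-boxes and 1 CArG box, Mb holds 3 E-boxes at the start shown and 2 at each of its 2 other annotated starts, and Myl1 holds 1. Pvalb, also higher in warm beige, holds 0 E-boxes at 1 annotated start and 1 at another, with no CArG box at either. Ckm and Mylpf each hold 1 E-box and no CArG box, and Tcap and Tnni2 have no window. No contrast between the higher and the lower genes is read from these counts. The letters CTANNNNTAG, a core of the MEF2 site, are in 3.2% of windows and the letters AAGGTCA, a half-site of oestrogen-related receptors, in 4.1%, and the windows of these genes hold neither. A match is a run of letters and not a measured site.

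Ckm had no row of its own, but a row of the table lies inside it. A930016O22Rik (chr7:19417466-19421417, GRCm38.p6) overlaps Ckm (chr7:19411094-19421583) over 3952 bases, and it was chosen after its values were seen. It had 61, 60 and 33 reads in warm beige libraries, against 1, 0, 0 and 114 reads in cold beige libraries. It had 1, 0, 2, 0 and 0 reads in warm brown libraries, against 0, 1, 0, 0 and 0 reads in cold brown libraries, and 25, 331, 2, 0 and 5 reads in warm white libraries. Its high libraries were those of Myh4 and Pvalb, cold beige library 4 and warm white library 2 among them. The use of strand in counting is not stated, so reads of Ckm and of A930016O22Rik cannot be told apart.

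Other genes of muscle were taken from a list of 87, written with earlier results of these data known, of which 33 had a row. All deposited rows reach 1 CPM in at least 3 libraries, so a gene low everywhere but in the 3 warm beige libraries could pass through them alone, and the 33 are not all muscle genes. Of the 33, Actn3, Mybpc1 and Myh1 reached 1 CPM in fewer than 3 libraries outside warm beige, as did Tnni2, Tcap and Pvalb, and these 3 of the 33 are among those counted as higher below. In beige warming 19 of the 33 rose, 9 fell and 5 did not pass, where 72.9% of all rows passed, 36% higher and 36.9% lower. Their median difference was 1.46, against 0.03 over all rows (log2). In brown warming 15 rose, 3 fell and 15 did not pass, with a median of 0.87, against 0.13 over all rows. The share that passed in brown was thus below the 71.3% of all rows.

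Genes that rose in warm beige fat included Ryr1, the calcium release channel of skeletal muscle, higher by 4.84 ± 1.30 (log2, SE; limma-trend, adjusted p = 0.00212), and Tnnc2, fast troponin C, by 4.84 ± 0.97 (adjusted p = 0.000126). Ryr1 had 14 ± 6.48 CPM in warm beige (SD, n = 3) and 0.725 ± 0.783 CPM in cold beige libraries (n = 4), while cold brown libraries had 0 reads of it. Within batch 1 the difference was 2.84 for Ryr1 (limma-trend, adjusted p = 0.407) and 3.15 for Tnnc2 (adjusted p = 0.187), and neither passed. Mybpc1, slow myosin-binding protein C, had 18, 16 and 10 reads in warm beige libraries, against 3, 0, 0 and 15 reads in cold beige libraries, and is given without a test because its row passed the filter through the warm beige libraries.

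Not all muscle genes followed the sarcomere. Fbp2, muscle fructose bisphosphatase, fell by 3.38 ± 0.68 in warm beige against cold beige libraries (log2, SE; limma-trend, adjusted p = 0.000126) and by 2.33 ± 0.56 in warm brown against cold brown libraries (adjusted p = 0.000811). Its level was 3.00 ± 0.894 CPM in warm beige and 33.9 ± 2.11 CPM in cold beige libraries, and 14.7 ± 0.804 CPM in warm brown and 74.8 ± 12.4 CPM in cold brown libraries. Warm white libraries had 0.413 ± 0.381 CPM. As for Mb, cold brown was highest and warm beige and warm white were lowest, but cold beige lay above warm brown without overlap, where the Mb libraries of these groups overlapped. Srl, sarcalumenin of the sarcoplasmic reticulum, fell by 3.31 ± 0.23 in beige (limma-trend, adjusted p = 1.13e-11) and by 2.08 ± 0.19 in brown libraries (adjusted p = 1.4e-09). Des, the intermediate filament desmin, fell by 1.75 ± 0.37 in beige (limma-trend, adjusted p = 0.000224) and by 0.77 ± 0.31 in brown libraries (adjusted p = 0.0285). Actn2, alpha-actinin 2, fell by 3.04 ± 1.21 in beige libraries (limma-trend, adjusted p = 0.0285), and without warm beige library 3 this was -1.02 with an adjusted p of 0.392; without cold beige library 3 or 4 the adjusted p was 0.0501 or 0.0512. The brown call of Des was lost without any 1 of cold brown libraries 3, 4 and 5 and warm brown libraries 1 and 2, with differences of -0.75 to -0.71 and adjusted p-values of 0.051 to 0.0617 by limma-trend.

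In brown fat several muscle genes rose on warming although Myh4, Tnni2 and Pvalb were at or near 0 reads. Ldb3, the Z-disc protein cypher, was higher by 5.63 ± 0.28 (log2, SE; limma-trend, adjusted p = 8.68e-14), and Flnc, filamin C, by 3.24 ± 0.43 (adjusted p = 6.29e-07). Mybpc2, fast myosin-binding protein C, was higher by 4.80 ± 1.13 (limma-trend, adjusted p = 0.000681). Mybpc2 had 662 reads over the 5 warm brown libraries, at 6.22 to 7.80 CPM, and 24 reads over the 5 cold brown libraries, at 0.122 to 0.516 CPM. The warm libraries were close to each other and all above the cold ones. In batch 1 alone the Mybpc2 difference was 4.80 as well but did not pass (limma-trend, adjusted p = 0.0642). Fibroblast markers also moved in brown fat, with a sum of 569 to 736 CPM in warm brown, against 62.1 to 119 CPM in cold brown libraries, and Rn45s made up 0.11% to 0.597% of a warm brown and 0.058% to 0.099% of a cold brown library; their part in these rises was not tested. By the same reads Tnnt3, fast troponin T, had 4 reads in all of warm brown and 0 in all of cold brown fat.

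**Figure D4:**
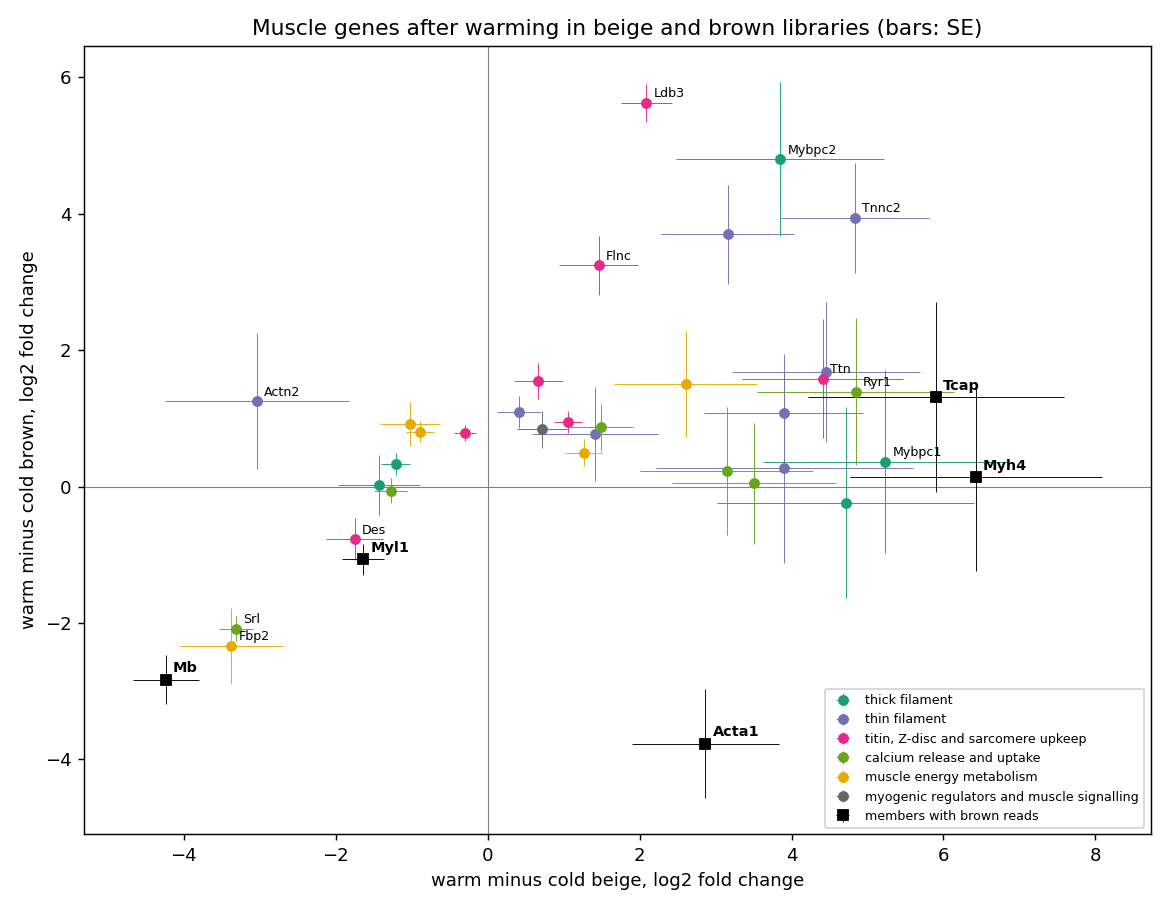
Difference between warm and cold libraries in brown fat (vertical axis) against that in beige fat (horizontal axis), in log2 units of the deposited values with bars for SE, for other muscle genes by role (circles) and 5 of the 7 genes described (squares; Tnni2 and Pvalb, with no brown reads, are left out). Mb, Myl1, Fbp2 and Srl lie below 0 on both axes, Ldb3 and Mybpc2 are above 0 on both, and Acta1 is above 0 in beige and below 0 in brown fat.

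By role, more genes rose than fell in beige fat among the titin, Z-disc and upkeep genes and the calcium genes. More fell than rose among the metabolic genes. Of the 5 thick filament genes with a row 3 rose and 2 fell, and of the 8 thin filament genes 5 rose and 1 fell. The thick filament genes that rose include Myh1 and Mybpc1, and the thin filament genes that rose include Actn3. Each of these reached 1 CPM in fewer than 3 libraries outside warm beige. Such rows passed the filter through the group where they are high, so no excess of rises is read for the thick or the thin filament. Of the 8 genes of titin, the Z-disc and sarcomere upkeep 5 rose and 1 fell in beige fat. Of 6 genes of calcium release and uptake 4 rose and 2 fell, and of 5 genes of muscle energy metabolism 2 rose and 3 fell. Of all rows 36% rose and 36.9% fell. In brown fat 6 of the 8 genes of titin, the Z-disc and sarcomere upkeep rose and 1 fell, 3 of 8 thin filament genes rose, and 1 of 5 thick filament genes rose, where 41.2% of all rows were higher and 30.1% lower. Against warm white, 13 of the 33 were higher and 8 lower in warm brown libraries, where 40.9% of all rows were higher and 38.1% lower. In cold brown libraries 9 were higher and 17 lower than in warm white libraries, where 40.4% of all rows were higher and 45.2% lower.

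In these genes beige and brown fat stood further apart when warm than when cold. In warm beige against warm brown libraries none of the 7 genes overlapped, where 70% of all rows did not. The beige libraries helped choose the genes, so nothing is read from this count. Tnni2, Tcap and Pvalb also passed the filter through the warm beige libraries. Acta1 differed by 8.03 ± 0.93, Mb by -4.74 ± 0.42 and Myl1 by -0.94 ± 0.27 (log2, SE, as deposited). Myh4 differed by 9.15 ± 1.59 and Tcap by 6.87 ± 1.61, with sizes set largely by warm brown libraries at or near 0 reads. For Tnni2 and Pvalb the warm brown libraries had no reads, so no fold is given. In cold beige against cold brown libraries Mb, at -3.33 ± 0.38, was the 1 gene of the 7 without overlap, where 54.2% of all rows did not overlap. Myl1, at -0.37 ± 0.24, did overlap there.

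The sarcomere genes kept company with each other across the 22 libraries. The Pearson correlation was 0.976 for Tnni2 with Pvalb, 0.941 for Myh4 with Tnni2, 0.933 for Myh4 with Pvalb and 0.923 for Tcap with Pvalb, and 0.704 to 0.855 for Acta1 with the other 4. Many of these values are libraries with no reads, which share a floor within each batch. The rows most like Acta1 were Pxn (0.897), Clcn6 (0.894), Acbd4 (0.894), Supt6 (0.894) and Sf3b1 (0.893), none of them on those lists.

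Markers of several other cell types, but not of all, were higher in warm beige libraries too. Fibroblast markers (8 of 8 with a row) summed to 8020 to 12000 CPM in warm beige, against 1600 to 2070 CPM in cold beige libraries, and endothelial markers (10 of 10) to 568 to 889 CPM in warm beige, against 171 to 361 CPM in cold beige libraries. Smooth muscle markers (8 of 10) summed to 193 to 289 CPM in warm beige, against 80 to 127 CPM in cold beige libraries. Macrophage markers (7 of 11) summed to 99.2 to 149 CPM in warm beige and 53 to 90.5 CPM in cold beige libraries, with 3 of the 7 called higher. Globin and red cell markers (4 of 9) summed to 22 to 26 CPM in warm beige and 24.2 to 33.5 CPM in cold beige libraries. Of these 4, 0 were called higher and 1 lower. The precursor of ribosomal RNA, Rn45s, made up 4.32% to 5.72% of a warm beige library and 0.436% to 1.15% of a cold beige library, and the warm beige libraries were the shallower ones. The thermogenic genes summed to 229 to 400 CPM in warm beige and 7120 to 7860 CPM in cold beige libraries. The part of other cells, of RNA quality or of depth in the sarcomere values was not tested. Warm white libraries had 12300 to 14800 CPM of the fibroblast markers and 56.1 to 83.3 CPM of the endothelial markers, with 2.06% to 2.41% of Rn45s, and library 2 alone was high in the sarcomere genes.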

How the data were processed

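Ribosome-bound mRNA of 22 libraries was deposited by the authors as 1 table of log2 CPM with 11603 rows. HISAT2, Picard, featureCounts and edgeR were used on the mouse build mm10, per the submitters' processing notes, with no versions given; the counting annotation and strand are not given in the sources used here. The members and lists were chosen with earlier results of these data known.

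The table carries a batch adjustment. Values at the floor in 42 rows put 10 libraries in batch 1 and the other 12 in batch 2, with all 1453 links between libraries kept, and a fit of group and batch left batch coefficients of at most 0.0025. The labels name no batch. In 123 rows with floor values in both batches the midpoint was -5.785 to -5.78, which gave the floor before adjustment (-5.782 log2 CPM), the worth of 1 read per library and so an effective depth of 3700000 to 24140000 reads. The shift of each gene was taken from its own floor values or, for Acta1 and Mb, as the value that made reads whole; for Myl1 it was not resolved. CPM values of single genes in the text are before the adjustment, unless called deposited. Marker list sums, Rn45s shares and the filter of 1 CPM use the deposited values. A value recorded to 0.01 leaves reads uncertain by 0.7%. Reads could be recovered for part of the rows only, so no count test was run over the table. Limits for 0 reads are 3 reads over the depth.

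One limma-trend fit (limma 3.58.1, R 4.3.3) on the deposited log2 values held all 22 libraries with 5 group means and 17 residual degrees of freedom. These do not count the batch adjustment made before deposit, so the p-values may be somewhat too small. P-values are two-sided, adjusted by Benjamini and Hochberg over 11603 rows, at a threshold of 0.05; all rows passed a filter of 1 CPM in 3 libraries. In simulated data 88% of genes changed 2-fold and 95% of those changed 4-fold were found, with 15 false calls. There 200 of 11603 rows were changed. Whether these rates hold for genes at or near 0 reads, or where most rows change, was not tested. Contrasts of beige libraries were not tested for the members. Named were the members, up to 4 other muscle genes with the largest called change in each direction on warming (mean above 1 log2 CPM in either group), the 5 rows most correlated with Mb, Myl1 and Acta1, and marker list sums; 1 other muscle gene named by this rule is not reported here; Mybpc2 reads, Tnnt3 and A930016O22Rik were added after their values were seen. Sequences and positions are from RefSeq (GRCm38.p6), where 7 of the 9 symbols have an upstream window. Alternatives were added CPM, other filters and scalings, a batch term, each batch alone, library weights, a fit of only the groups compared, no mean trend, replicate numbers as a block, and each library left out; undoing the batch shift was chosen after seeing the data.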

Additional observations from a re-analysis of the deposited data

Results flagged for a closer look

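Acta1 in warm brown library 2 lay at -6.14 log2 CPM as deposited, apart from the other 4 warm brown libraries, with a gap of 0.711 of the group's range. That library had 0 reads of Acta1, against 1 or 2 in the other warm brown libraries, and the batch adjustment set it a further 0.72 on the log2 scale from those of batch 2. Of 28 gene and group pairs tested in this way, chance marks about 1 in 20.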

How the results depend on the processing

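No called value changed sign under any alternative run. Myh4 in brown warming, which was not called (0.14), did: it ran from -0.53 to 0.84 over left-out libraries and was 1.24 in batch 1 alone and -0.60 in batch 2 alone. Of the 7 genes, 3 passed in brown warming, and leaving out each library in turn gave 3 to 3. In warm brown against warm white 6 passed, with a range of 5 to 7 over left-out libraries, and 3 with 5 CPM added. In cold brown against warm white 7 passed, with a range of 6 to 7, and 4 with 1 CPM added, 3 with 5 CPM added and 3 in batch 2 alone. The other muscle genes that passed were 28 in beige warming (22 to 31 over left-out libraries, 9 in batch 1 alone) and 18 in brown warming (16 to 20, 7 in batch 1 alone); they were 21 in warm brown (20 to 22) and 26 in cold brown (23 to 27), each against warm white. Batch 1 alone holds 1 warm beige and 2 cold beige libraries, and 2 libraries of each brown group. The beige libraries did not overlap for 5 of the 7 genes, with a range of 5 to 7.

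Among single genes, Acta1 in brown warming was -0.23 with 5 CPM added (limma-trend, adjusted p = 0.635), and Tnni2 and Pvalb against warm white lost their calls with 1 or 5 CPM added and in batch 2 alone. Myh4 lost its calls against warm white with 5 CPM added. The share of called rows higher in warm brown was 57.7% as deposited, 49.8% under quantile normalization, 50% under median-of-ratios scaling, and 67.6% at a common total; the median of all rows was 0.128 as deposited, -0.012 under quantile normalization and 0.28 at a common total.

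Replicate numbers are shared between groups. Libraries of the same number had correlations of their deviations between -0.25 and 0.24, so the numbers were not taken as pairs. With the replicate number of the titles as a block, 3 genes passed in brown warming, 6 in warm brown and 7 in cold brown against warm white. Warm beige and warm white libraries were the shallowest, and 1 read there is worth more CPM than in the other groups.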
